A study of Homo sapiens with 10 samples.

Results

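The 9 genes described here make the antigen presentation machinery of MHC class I, and they were taken as named: the heavy chain genes HLA-B, HLA-C, HLA-E, HLA-F and HLA-G, the light chain gene B2M, the peptide transporter genes TAP1 and TAP2, and NLRC5, the gene of the class I transactivator. All 9 were found among 19974 protein-coding genes on chromosomes 1 to 22 and X. Binding was mapped by CUT&Tag, where DNA around an antibody is cut and tagged by a bound transposase, in wild-type hTERT-RPE1 cells, which derive from human retinal pigment epithelium and were made immortal with telomerase. Antibodies were against the serine 5 phosphorylated form of RNA polymerase II (Pol II below, 6 libraries), which is found early in transcription, and against H3K4me1 (4 libraries), a histone mark known from enhancers and promoter borders. The authors merged the libraries into 4 peak lists, 2 per target, called list 1 and list 2 here after the labels R1 and R2. The labels name no treatment and no other genotype, so the comparisons are between genes, between targets and between the lists.

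MHC class I molecules show peptides from inside the cell to cytotoxic T cells. Proteasomes cut proteins into peptides, the TAP1-TAP2 transporter carries these into the endoplasmic reticulum, and there they are loaded onto a heavy chain paired with the light chain beta-2 microglobulin. HLA-B and HLA-C are classical heavy chains of nearly all nucleated cells, HLA-E presents leader peptides to natural killer cells, and HLA-F and HLA-G have narrower expression, HLA-G being known from the placenta. Class I promoters carry a kappa B element, an interferon-stimulated response element and a module that ends in an inverted CCAAT box, through which NLRC5 acts with the RFX, CREB and NF-Y factors. HLA genes vary greatly between people, and the sequences printed here are those of the reference genome, not of the line.

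The promoters are shown first, because the genes with and without Pol II differ within 1 gene family. RefSeq promoter windows (GRCh38.p14) were matched for 7 of the 9 members. The table used here held no window for HLA-E or NLRC5. Each line gives the 250 bases before an annotated start of the gene, 5′ to 3′ on the strand of the gene. For HLA-G this is not the start of the gene model, and the line shown lies inside the model. A further TAP1 window, for a start inside the gene, is not shown. Capitals mark 5 motifs on either strand. The interferon element is a repeat of GAAA with 2 free bases between the copies, and its class I form, added after the windows were read, is the longest run of capitals in HLA-C. The kappa B palindrome is the first run of capitals in HLA-B. The inverted CCAAT box is ATTGG. The core of the cyclic AMP element, to which CREB binds, is TGACG.
HLA-B, chr6:31357180-31357429, minus strand: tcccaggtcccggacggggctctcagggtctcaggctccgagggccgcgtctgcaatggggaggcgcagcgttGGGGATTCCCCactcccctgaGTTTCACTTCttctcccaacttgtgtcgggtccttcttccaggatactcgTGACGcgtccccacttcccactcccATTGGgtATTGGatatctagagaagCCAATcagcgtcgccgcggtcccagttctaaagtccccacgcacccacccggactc
HLA-C, chr6:31272093-31272342, minus strand: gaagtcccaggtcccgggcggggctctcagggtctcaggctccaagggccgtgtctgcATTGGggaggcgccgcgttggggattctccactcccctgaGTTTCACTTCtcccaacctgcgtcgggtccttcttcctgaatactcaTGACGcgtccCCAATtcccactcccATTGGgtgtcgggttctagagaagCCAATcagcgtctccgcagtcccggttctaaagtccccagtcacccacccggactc
HLA-F, chr6:29723184-29723433, plus strand: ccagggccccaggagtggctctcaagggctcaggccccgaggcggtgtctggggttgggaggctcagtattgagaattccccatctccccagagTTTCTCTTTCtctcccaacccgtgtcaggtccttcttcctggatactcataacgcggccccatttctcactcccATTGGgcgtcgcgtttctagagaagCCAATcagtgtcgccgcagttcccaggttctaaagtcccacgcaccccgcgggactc
HLA-G, most downstream of 3 windows, chr6:29827575-29827824, plus strand: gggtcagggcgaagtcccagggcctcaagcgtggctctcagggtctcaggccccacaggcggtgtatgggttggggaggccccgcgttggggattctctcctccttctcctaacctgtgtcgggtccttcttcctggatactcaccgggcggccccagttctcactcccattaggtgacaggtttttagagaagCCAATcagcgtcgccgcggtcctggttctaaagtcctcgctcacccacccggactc
B2M, chr15:44711267-44711516, plus strand: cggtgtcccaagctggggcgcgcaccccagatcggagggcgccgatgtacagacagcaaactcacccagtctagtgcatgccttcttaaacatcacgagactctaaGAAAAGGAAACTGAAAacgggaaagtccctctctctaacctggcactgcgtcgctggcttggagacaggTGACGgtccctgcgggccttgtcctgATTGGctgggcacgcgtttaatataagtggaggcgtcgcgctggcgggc
TAP1, chr6:32853705-32853954, minus strand: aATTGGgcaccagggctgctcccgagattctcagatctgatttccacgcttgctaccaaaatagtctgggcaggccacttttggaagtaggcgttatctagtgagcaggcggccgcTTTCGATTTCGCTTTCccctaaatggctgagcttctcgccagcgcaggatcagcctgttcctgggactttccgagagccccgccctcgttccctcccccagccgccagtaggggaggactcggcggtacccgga
TAP2, chr6:32838740-32838989, minus strand: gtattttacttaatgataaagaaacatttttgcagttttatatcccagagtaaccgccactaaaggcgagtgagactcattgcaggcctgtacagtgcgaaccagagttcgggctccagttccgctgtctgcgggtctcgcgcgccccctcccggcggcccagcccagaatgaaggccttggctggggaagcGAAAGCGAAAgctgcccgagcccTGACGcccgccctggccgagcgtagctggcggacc

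Heavy chain promoters resembled each other over the 250 bases without holding long identical stretches. HLA-B and HLA-C were the closest, with 226 identical bases in 254 aligned columns (89.0%). HLA-F was 80.3% identical to HLA-B and 78.6% to HLA-C, and the most downstream HLA-G window was 71.6%, 78.6% and 73.5% identical to HLA-B, HLA-C and HLA-F. The same alignment of the B2M window with those of HLA-B and HLA-F gave 47.2% and 48.3%. None of the 265 stretches of 36 bases in the 300-base window of any of these heavy chain genes recurred in the window of another gene in the table. In B2M, 258 of 265 stretches recurred, in the window of PATL2, which overlaps that of B2M on the opposite strand. Only promoter windows were compared, so likeness inside the genes, and any likeness of HLA-E, was not measured. The sources used here give neither the read length nor the treatment of reads with several matches.

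The heavy chain windows differed in their kappa B and interferon motifs. Matches were searched on both strands in all 35116 windows of the table, 300 bases each, and positions count from the start base as +1 and name the first base of the match. The HLA-B window held the kappa B palindrome at -177, which 0.0313% of all windows held, and the class I form of the interferon element in reverse at -156, which 0.122% held. HLA-C held the same form in reverse at -152 and no palindrome. HLA-F held the general interferon element in reverse at -156, a motif of 3.57% of windows. In the HLA-G window neither form of the interferon element was found, and its only capitals are an ATTGG in reverse at -56. That reverse ATTGG stood at -56 in HLA-B and HLA-C too and at -57 in HLA-F. In the forward direction ATTGG lay at -81 and -74 in HLA-B, at -192 and -80 in HLA-C and at -82 in HLA-F. The HLA-G window held no forward match, and HLA-C held a further reverse one at -95. On either strand, 34.6% of all windows held at least 1. TGACG, held by 24.6% of windows, lay at -106 in HLA-B and -105 in HLA-C. B2M held the interferon element at -144 and again, overlapping it, at -138, then TGACG at -75 and ATTGG at -49. TAP1 held an overlapping pair of interferon elements in reverse at -134 and -128, and TAP2 held 1 at -58. A looser kappa B motif (GGGANNNCC, 22.9% of windows), which overlaps the palindrome, was found in HLA-B at -176 and HLA-G at -177. The gamma activated site TTCNNNGAA (7.66%) was not found in the 7 windows shown, and TATAAA (11.5%) was found in TAP2 alone of them, in reverse at -214. These are matches of letters in 1 window per gene, not sites of binding.

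Pol II of both lists stood at 5 of the 9 genes: HLA-C, HLA-E, B2M, TAP1 and TAP2. A gene counted as carrying a target when a peak of each list lay within 1 kb of the same end of its model, and 39.4% of all protein-coding genes carried Pol II by this rule. List 1 alone put Pol II at 7 members (43.7% of all genes) and list 2 alone at 6 (47.4%), since HLA-B was marked in list 1 only and NLRC5 at a different end in each list. Neither end of HLA-F or HLA-G had a Pol II peak in any list (2 of 9, against 48.8%). H3K4me1 was at 8 of the 9 genes, against 63.9% of all genes. List 1 put it at 8 members (71.0%) and list 2 at 9 (65.2%), HLA-G being the difference. Both targets were at the same 5 members (37.2% of all genes carried both), and HLA-B, HLA-F and NLRC5 carried H3K4me1 without Pol II of both lists (3 of 9, against 26.6%). At both ends of the gene, TAP1 alone had Pol II (1 of 9, against 4.35%), and TAP1 and NLRC5 had H3K4me1 (2 of 9, against 10.3%). Of all genes, 27.8% had no H3K4me1 peak at an end in either list, and 0 of the members. Both shares of members are from few genes that are partly neighbours and relatives (55.6%, 95% exact interval 21.2 to 86.3 for Pol II, and 88.9%, 51.8 to 99.7 for H3K4me1), and the intervals cover the counting of genes only. The background share lies inside both intervals.

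**Figure D1:**
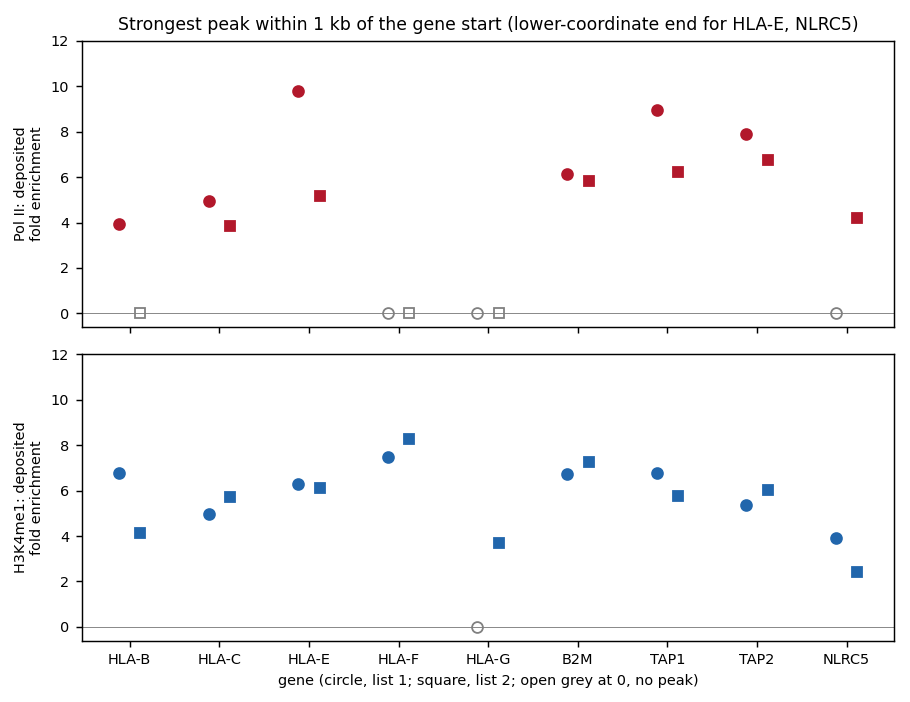
Deposited fold enrichment (vertical axis, ratio without unit) of the strongest peak within 1 kb of the gene start, or of the lower-coordinate end for HLA-E and NLRC5, for each of the 9 genes, with Pol II above and H3K4me1 below. Circles are list 1, squares list 2 and open grey symbols at 0 mean no peak; HLA-F has H3K4me1 folds of 7.47 and 8.29 and no Pol II peak, and HLA-G has a single H3K4me1 peak, in list 2.

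Strand was known for 7 members through the promoter table, and it placed Pol II at their starts rather than their far ends. The start carried Pol II of both lists in 4 of the 7 (39.0% of 15813 genes with a strand) and the far end in 1 (7.67%). H3K4me1 was at the start of 6 of the 7 (61.6% of genes with a strand) and at the far end of 1 (15.2%). That 1 far end was the same for both targets, the end of TAP1 that faces PSMB8. For HLA-E and NLRC5, whose strand was not taken from the table, ends are named by coordinate. In a population of cells, a peak from few cells and a weak one from many cannot be told apart.

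Among the heavy chain genes, HLA-E (chr6:30489509-30494194) had the strongest Pol II peak. In list 1 the deposited fold enrichment, read as signal over the background that the caller estimated, was 9.77, with a -log10 q of 26.8, higher than or equal to 94.8% of the Pol II peaks of that list. In list 2 the fold was 5.18 and the -log10 q 15.7, at the percentile 85.9. Both lists thus rank their strongest peak at this end high among Pol II peaks. The folds of 9.77 and 5.18 belong to summits at different places, so they do not compare the lists at 1 place. The list 1 summit lay 7 bp inside the lower-coordinate end, and a second list 1 peak had its summit 737 bp inside, with a fold of 5.05. List 2 joined both places in 1 peak of 1396 bp, with its summit 732 bp inside the gene. At the inner place the folds were thus 5.05 in list 1 and 5.18 in list 2. H3K4me1 covered the same stretch, with a fold of 6.28 in list 1 (a peak of 2058 bp) and 6.11 and 5.25 in 2 peaks of list 2.

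HLA-C (chr6:31268749-31272092) showed the same layout at lower folds. List 1 had a Pol II peak with its summit 24 bp before the start (fold 4.94, percentile 71.5) and a weaker one with its summit 766 bp inside the gene (2.99, percentile 19.8). List 2 had 1 peak of 1460 bp over both places, with a fold of 3.85, a percentile of 77.8 and the summit 755 bp inside. HLA-C and HLA-E therefore each had a summit near the marked end in list 1 and an inner summit in both lists. The 4 inner summits lay between 732 and 766 bp from that end, which is the start in HLA-C and the lower-coordinate end in HLA-E. H3K4me1 at HLA-C came in 2 peaks in each list. The outer one had a fold of 4.96 and 5.72 with its summit 308 and 109 bp before the start, and the inner one a fold of 4.606 and 3.502 with its summit 932 and 794 bp inside.

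HLA-B (chr6:31353875-31357179), the closest relative of HLA-C by promoter, had Pol II of both lists inside the gene and not at its start. The inner peak had a fold of 3.87 in list 1 and 3.31 in list 2, with summits 1532 and 1529 bp inside the gene, so the lists placed it within 3 bp of each other. Its percentiles of 35.6 and 51.2 put it in the lower and middle part of the lists. At the start, list 1 had a peak with a fold of 3.95 and its summit 76 bp before the start, and list 2 had none: the nearest list 2 edge was that of the inner peak, 1098 bp away, just beyond the 1 kb limit. Under a 2 kb limit HLA-B is counted as carrying Pol II, through the inner peak. H3K4me1 was at the start in both lists, with a fold of 6.76 and 4.12, and list 2 had a further H3K4me1 peak (3.65) whose summit was 1532 bp inside, the same base as the Pol II summit of list 1. The microRNA gene MIR6891 lies inside HLA-B, and its nearest end was 331 and 334 bp from the Pol II summits of the 2 lists.

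**Figure D2:**
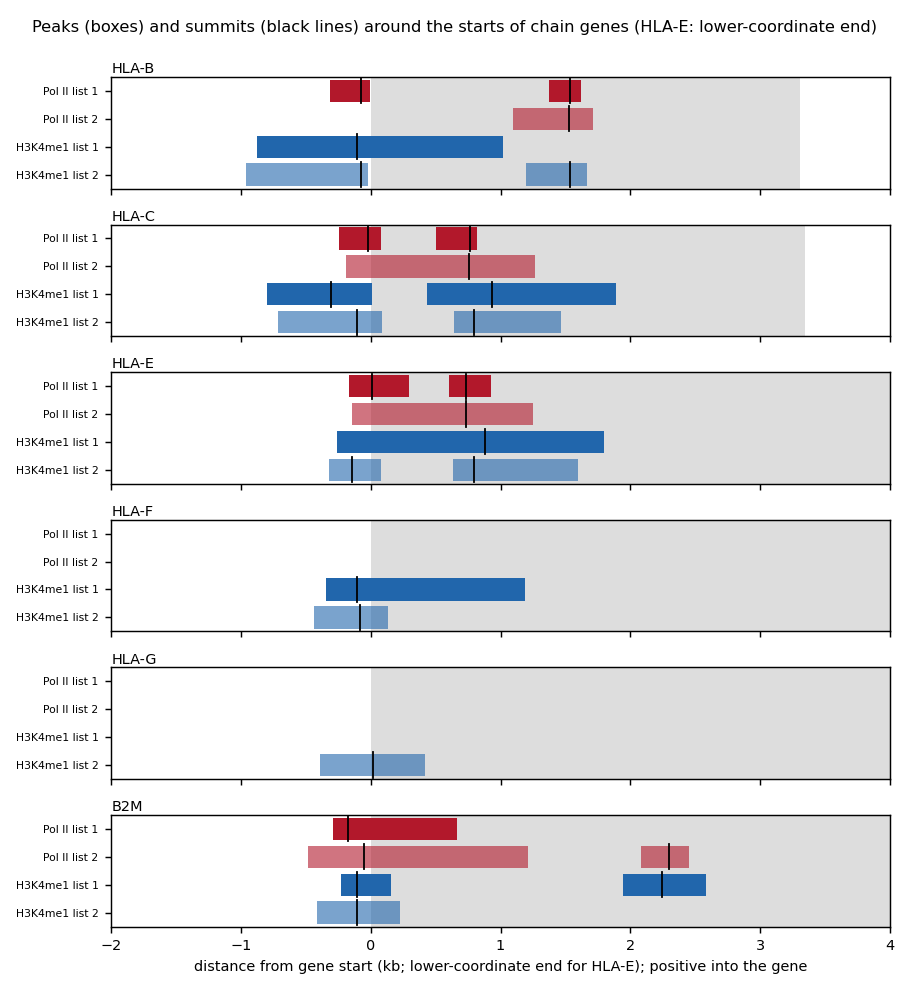
Peaks (boxes) and their summits (black lines) of the 4 lists around the starts of HLA-B, HLA-C, HLA-F, HLA-G and B2M and the lower-coordinate end of HLA-E, with distance from that end in kb on the horizontal axis, positive into the gene, and the gene in grey. Inner Pol II summits are seen at HLA-C (766 and 755 bp), HLA-E (737 and 732 bp) and HLA-B (1532 and 1529 bp), and no Pol II box is drawn at HLA-F or HLA-G.

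HLA-F and HLA-G, the heavy chains of narrow expression, had no Pol II at the gene, and they differed in H3K4me1. HLA-F (chr6:29723434-29738532) carried H3K4me1 at its start with a fold of 7.47 in list 1 and 8.29 in list 2, and its lower value exceeded the H3K4me1 fold at the start of each other member, of which the highest was 7.27 at B2M in list 2, taking the lower-coordinate end for HLA-E and NLRC5. The H3K4me1 summits lay 106 and 81 bp before the start, inside the promoter window shown. The nearest Pol II edge to the start was 40224 bp away in list 1 and 28993 bp in list 2, both beyond the far end of the gene. HLA-G (chr6:29826474-29831021) had 1 H3K4me1 peak at an end, in list 2, with a fold of 3.68 and a percentile of 15.9. Its summit lay 17 bp inside the most upstream of the 3 starts. The peak also lay over the pseudogene HCG4P8, with its summit 362 bp from the nearest end of that gene. It did not reach the window shown, which belongs to the most downstream start. No Pol II peak of any list lay within 50 kb of HLA-G, and the nearest edge was 62610 bp from the start in list 1 and 62621 bp in list 2. Of all protein-coding genes, 78.5% had a Pol II region of both lists within 50 kb.

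B2M (chr15:44711517-44718145) carried Pol II over its start at a high rank in both lists. Its 2 peaks had a fold of 6.14 and 5.82, with a -log10 q of 19.4 and 29.5 and percentiles of 90.1 and 95.6. The start is shared: that of PATL2, a gene of messenger RNA metabolism on the opposite strand, lies 127 bp away. The Pol II summit was 175 bp before the B2M start and 48 bp from PATL2 in list 1, and 54 and 73 bp in list 2, so the lists did not place it nearer to the same gene. The peaks were 959 and 1690 bp wide. H3K4me1 had its summit at the same base in both lists, 106 bp before the B2M start and 21 bp from PATL2, with a fold of 6.71 and 7.27. A weak inner Pol II peak (fold 2.18, list 2 only, 2295 bp inside) lay beside an inner H3K4me1 peak of list 1 (3.30, 2245 bp inside).

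The transporter genes lie in a cluster with PSMB8 and PSMB9, which encode catalytic subunits of the immunoproteasome, and each of the Pol II regions at TAP1 was shared with one of these. TAP1 (chr6:32845209-32853704) and PSMB9 start 488 bp apart on opposite strands. The Pol II peak there had a fold of 8.97 in list 1 and 6.21 in list 2. Its summit was 119 bp from PSMB9 and 369 bp from TAP1 in list 1, and 336 and 152 bp in list 2, so it moved from one gene to the other between lists. H3K4me1 there had a fold of 6.77 and 5.78 with summits 117 and 109 bp from PSMB9, on its side in both lists. The far end of TAP1 had the stronger peak, with a Pol II fold of 10.8 and 9.06 (percentiles 96.3 and 97.3) and an H3K4me1 fold of 9.65 and 10.6. The Pol II peak had the same edges in both lists, chr6:32844094-32844883. Its summits lay 12 and 17 bp from the PSMB8 start and 518 and 547 bp from the TAP1 end, so the call at the TAP1 far end rests on a peak at PSMB8.

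TAP2 (chr6:32821831-32838739) had a start of its own, 1978 bp from the nearest end of PSMB8. Pol II there had a fold of 7.89 and 6.74, with percentiles of 81.8 and 87.0 and summits 163 and 160 bp before the start. H3K4me1 had a fold of 5.38 and 6.02, with summits 160 and 161 bp before the start. All 4 summits thus lay within 3 bp of each other, before the start and inside the window shown. List 2 had a further Pol II peak 683 bp beyond the far end (fold 3.97, percentile 19.4) without a partner in list 1.

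**Figure D3:**
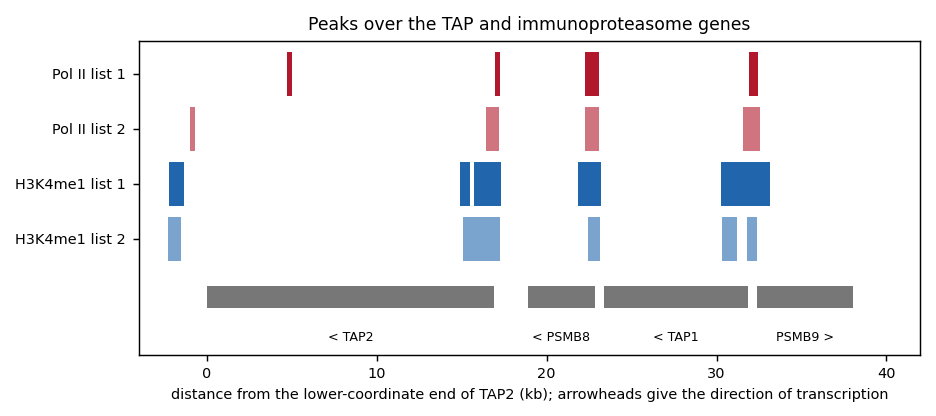
Peaks of the 4 lists over TAP2, PSMB8, TAP1 and PSMB9 against distance from the lower-coordinate end of TAP2 in kb, with the genes as grey bars and arrowheads for the direction of transcription. Pol II of both lists stands at the TAP2 start, at the PSMB8 start beside the far end of TAP1, and between TAP1 and PSMB9, which start 488 bp apart.

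NLRC5 (chr16:56989557-57083520), at 93964 bp by far the longest member, had Pol II inside the gene and not at the same end in both lists. At the lower-coordinate end, list 2 had a Pol II peak with a fold of 4.19 and its summit 43 bp away, and a weaker one 930 bp outside the gene, while the nearest list 1 edge was 11130 bp away. At the higher-coordinate end, list 1 had a peak with a fold of 3.82 and a percentile of 11.9, 892 bp beyond the gene, and list 2 had none within 10913 bp. Inside, 4 regions held Pol II of both lists. The strongest, chr16:57071939-57072607, had a Pol II fold of 11.7 and 8.30 and percentiles of 95.3 and 94.4, and its summit was at the same base in both lists, 11132 bp from the higher-coordinate end. The other 3 had folds of 5.43 and 4.27, of 4.90 and 3.27, and of 3.42 and 3.42.

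All 4 inner Pol II regions of NLRC5 lay on H3K4me1, whose fold there was 8.16 or more in each list. The 4 pairs of H3K4me1 folds were 9.50 and 9.22 at the strongest Pol II region, then 9.79 and 8.16, 9.05 and 9.39, and 9.09 and 10.97. NLRC5 held 7 H3K4me1 regions over its body in all. The ends of NLRC5 had lower H3K4me1 folds than the 4 regions with Pol II. They were 3.93 and 2.40 at the lower-coordinate end and 7.86 and 5.76 beyond the other. The body regions without a Pol II region had folds of 5.06 and 5.14, 3.79 and 4.40, and 5.57 and 4.76. In each list these were below the fold beyond the higher-coordinate end. A lncRNA gene, LOC124903696, ends 156 bp from the lower-coordinate end. Pol II of both lists over the body, more than 1 kb from both ends, was found in HLA-B and NLRC5 among the members (2 of 9) and in 31.6% of all protein-coding genes. For H3K4me1 this was NLRC5 alone (1 of 9), against 51.5%. A region had to lie wholly inside these limits, which leaves little room in short genes such as HLA-B (3305 bp) and HLA-C (3344 bp). The shares of all genes are over genes of every length, so these counts depend on gene length.

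Ordered by Pol II fold at the start, or at the lower-coordinate end of HLA-E, HLA-C stood lowest of the 5 genes called in both lists and B2M next, while TAP1 and TAP2 overlapped. The pairs of folds ran from 4.94 and 3.85 at HLA-C to 6.14 and 5.82 at B2M, 7.89 and 6.74 at TAP2, 8.97 and 6.21 at TAP1 and 9.77 and 5.18 at HLA-E. Both values of HLA-C lay below both values of each of the other 4. Both values of B2M lay below both of TAP1 and of TAP2, and the pairs of TAP1 and TAP2 overlapped. HLA-E had no place in this order, because its pair spanned all values of B2M, TAP2 and TAP1. With 2 lists a gene, none of these differences was tested. The strongest peak had the higher Pol II fold in list 1 at all 5 of these ends. Over all peaks too the median fold of list 1 was higher, 5.13 against 4.47. At HLA-C and HLA-E, however, the pair sets a list 1 summit near the end beside a list 2 summit inside the gene. At these inner summits list 2 had the higher fold, 3.85 against 2.99 at HLA-C and 5.18 against 5.05 at HLA-E. Folds are the authors' values per peak, each scaled to its own list.

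The neighbourhoods were described as regions, merged intervals to which each list of a target gave a peak. The 9 genes with 50 kb to either side made 6 separate loci of 0.933 Mb in all, since the flanks of TAP1 and TAP2, of HLA-B and HLA-C, and of HLA-F and HLA-G overlap. They held 23 Pol II regions and 59 H3K4me1 regions. With list 2 alone the Pol II number was 38, and with list 1 alone 40. Of the 23, 21 overlapped an H3K4me1 region (91.3%, 95% exact interval 72.0 to 98.9), against 87.7% of all 30981 Pol II regions. From the other side, 22 of the 59 H3K4me1 regions held Pol II (37.3%), against 25.8% of all 104482. The Pol II regions that overlapped no H3K4me1 region of both lists were the one inside HLA-B and one 38.4 kb from HLA-E. Each of them overlapped an H3K4me1 peak of list 2, with a fold of 3.65 and 3.10 respectively, and no H3K4me1 peak of list 1. The members' loci did not differ from all regions beyond the interval in the first share, and regions are not replicates.

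**Figure D4:**
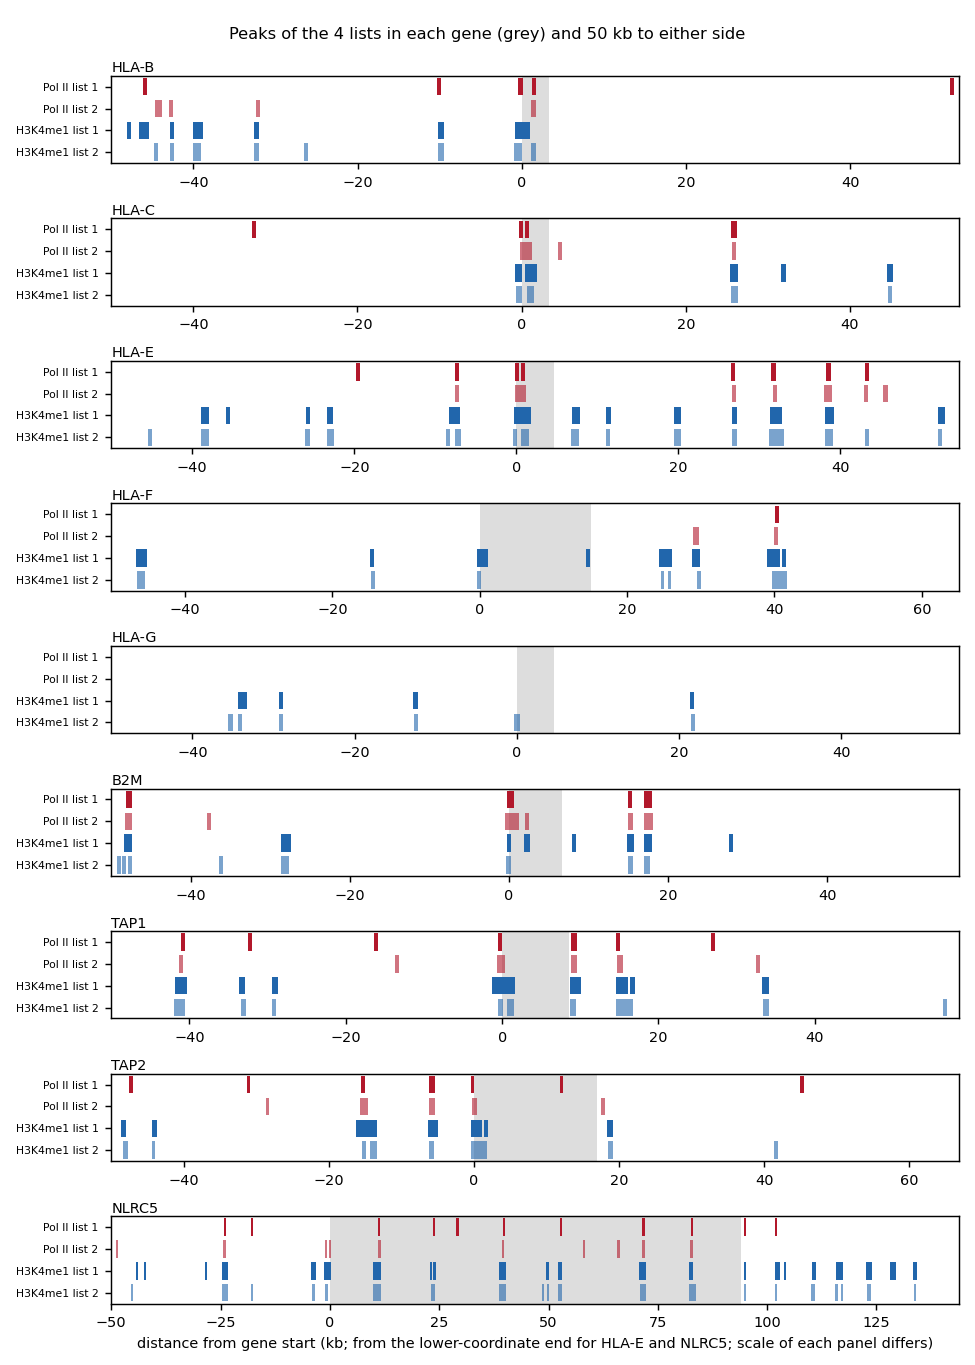
Peaks of the 4 lists (colored boxes, the narrowest drawn 0.5 kb wide) in each of the 9 genes (grey) and 50 kb to either side, against distance from the gene start in kb, or from the lower-coordinate end for HLA-E and NLRC5, on a scale that differs between panels. HLA-G has no Pol II box and HLA-E and NLRC5 have the most, with 6 and 5 regions of both lists.

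Members differed widely in the number of regions around them. Counted per gene with its flanks, Pol II regions numbered 0 at HLA-G, 1 at HLA-B and HLA-F, 2 at HLA-C, 3 at TAP2, 4 at B2M and TAP1, 5 at NLRC5 and 6 at HLA-E. The median over all protein-coding genes was 3, with quartiles of 1 and 5. For H3K4me1 the numbers were 4 at HLA-C and HLA-G, 5 at HLA-B and B2M, 6 at HLA-F and TAP2, 7 at TAP1, 12 at HLA-E and 16 at NLRC5, around a median of 8 with quartiles of 4 and 11. NLRC5 is longer than the others, so its window is wider. At least 1 H3K4me1 region was found around 9 of 9 members (91.0% of all genes) and at least 1 Pol II region around 8 of 9 (78.5%).

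Of the 23 Pol II regions, 11 lay within 1 kb of an end of an annotated gene, and 12 did not. Among these 12, 11 lay on an H3K4me1 region of both lists. The same 2 counts over all Pol II regions were not made, so neither is shown to be particular to these loci. Of all Pol II regions, at a gene end or not, 87.7% lay on H3K4me1. Near HLA-C there was 1 of the 12, chr6:31245907-31246583, 22.2 kb beyond the far end of the gene. It had a Pol II fold of 8.76 and 6.95, above both start values of HLA-C itself, and an H3K4me1 fold of 12.3 and 15.9. Its nearest annotated gene end was that of HLA-C, 22.5 kb from its middle. Near HLA-E, the region chr6:30527490-30528463, 33.3 kb away, had a Pol II fold of 8.03 and 6.29 and an H3K4me1 fold of 7.14 and 7.64, and chr6:30520991-30521580, 26.8 kb away, had 4.85 and 5.44 on H3K4me1 of 8.75 and 9.17. The nearest gene end to both was that of the lncRNA gene LINC02569. HLA-F had 1 Pol II region in its flanks, chr6:29763480-29763864, 24.9 kb away, with 5.85 and 4.86 and the pseudogene LOC353010 nearest, on H3K4me1 of 6.44 and 7.83. NLRC5 had 1, 23.9 kb away inside CETP, the gene of cholesteryl ester transfer protein, with 4.79 and 4.99.

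Flank regions of B2M and the transporter genes belonged mostly to other gene ends. Near B2M, chr15:44728488-44729655 had a Pol II fold of 6.62 and 5.49 and lay at the end of the transcribed pseudogene RNF4BP, 10.3 kb away. A region 47.4 kb from B2M, with 9.15 and 5.83, lay at the end of SPG11, whose product acts in lysosome and axon upkeep. Another, 8.40 kb beyond B2M and at no gene end, had 4.50 and 4.94 on H3K4me1 of 6.90 and 7.41. Near TAP1, a region 40.7 kb away at the lncRNA gene LOC100294145 had 4.79 and 7.46, the higher value being that of list 2.

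The other genes of the pathway, from a list of 35 chosen for their known roles, carried Pol II at an end in 28 cases (80%, 95% exact interval 63.1 to 91.6), against 39.4% of all protein-coding genes. H3K4me1 was at 32 of the 35 (91.4%), against 63.9%. Genes of the loading complex had Pol II in 5 of 5, genes of peptide supply in 6 of 7 and factors that bind class I promoters in 10 of 12. Interferon gamma signalling genes had it in 3 of 5 and class I-like genes in 4 of 6. These counts include genes whose strongest Pol II peak had its summit nearer to a neighbour. In CANX of the loading complex that summit was 1002 and 1067 bp from its own end, with MAML1 nearest. The list was drawn up with earlier results of these data known, many of its genes are expressed in most cells, and no test of the list was made.

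The strongest peaks of this list, by mean percentile of -log10 q, were at genes of peptide supply and loading and at promoter factors. CALR, for the chaperone calreticulin, had a Pol II fold of 6.65 and 4.76 (percentiles 97.95 and 98.1). PSME2, for a proteasome activator subunit, had 8.63 and 7.04, with the summit nearer to the end of its neighbour RNF31. PSMB8 had the values given above for the far end of TAP1. TAPBPL, for a peptide editor related to tapasin, had 9.50 and 7.42, but its summit was 1218 and 1213 bp from its own end and nearer to VAMP1. NFYA, for a subunit of the CCAAT-binding factor, had 8.03 and 5.54, and IRF1, an interferon response factor, 6.08 and 4.48. In 4 genes neither list had a Pol II peak at an end: CD1D, which presents lipids, the peptidase gene ERAP2, the receptor gene IFNGR2 and the kinase gene JAK1. Of these, ERAP2 (3.02 and 3.41) and JAK1 (4.41 and 2.96) had H3K4me1 of both lists at an end.

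Class II genes work in professional antigen presenting cells, and those of the HLA family lie in the same region of chromosome 6 as the TAP genes. In the list of 12 class II genes, which also holds CIITA and CD74 on other chromosomes, Pol II was at 1 (8.33%, 95% exact interval 0.211 to 38.5), against 39.4% of all protein-coding genes. H3K4me1 was at 3 of 12 (25%, 5.49 to 57.2), against 63.9%. With list 2 alone, the Pol II number was 3. The gene with both lists was HLA-DMA, which encodes a chain of the peptide exchange factor, with a Pol II fold of 9.77 and 8.49, an H3K4me1 fold of 11.67 and 11.995, and Pol II summits 171 and 172 bp from its end. CIITA, the class II transactivator gene and a relative of NLRC5, lacked a Pol II peak at either end, and its H3K4me1 (2.64 and 2.51) lay nearer to the neighbour DEXI. CD74, for the invariant chain, lacked Pol II of both lists at the same end and had no H3K4me1 peak. The difference between the class I and class II lists was not tested.

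**Figure D5:**
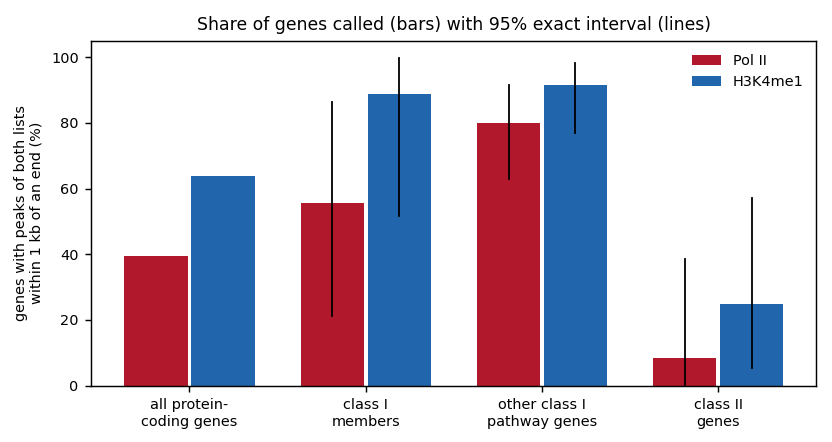
Share of genes (vertical axis, percent) called in both lists at 1 end or both (1 kb limit), for all 19974 protein-coding genes, the 9 class I members, 35 other pathway genes and 12 class II genes, with Pol II in red and H3K4me1 in blue. Lines are 95% exact intervals over genes; Pol II is at 55.6% of the members, 80% of the pathway genes and 8.33% of the class II genes.

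A few cell type markers were looked at, too few to settle the labelled cell type. Of 7 pigment epithelium genes, 1 (PMEL) carried Pol II, with the summit nearer to CDK2, and 4 carried H3K4me1. RPE65, BEST1 and TYR had neither target called. Of 4 leukocyte genes, 0 carried Pol II and 2 carried H3K4me1. Of 4 genes of cultured epithelial and mesenchymal cells, 3 carried Pol II, of which KRT8 and KRT18 share 1 peak, and 4 carried H3K4me1. Of all protein-coding genes, 39.4% carried Pol II and 63.9% H3K4me1. The pigment epithelium set (14.3% and 57.1%) and the leukocyte set (0% and 50%) lay below both shares, and the culture set (75% and 100%) above. No peak of any list lay on an alternate sequence of the HLA region.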

How the data were processed

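From CUT&Tag of hTERT-RPE1 cells the authors deposited 4 merged peak lists in narrowPeak layout, 1 per target and R number, so T numbers cannot be separated. The labels do not say whether the R numbers mark separate cultures. The submitters' processing notes name BWA, SICER, deepTools and hg38. The notes give these tools no roles, so whether SICER, a peak caller, wrote these lists is unknown here, as are the threshold and any control. Per peak, the deposited lists hold a score (10 times the -log10 q without decimals in at least 99.9% of peaks), a ratio read as fold enrichment, the -log10 of a q-value (not below 1.00) and the summit position. A further deposited column was not used. They hold no counts of reads, so depth is unknown, and intervals cover the counting of genes or regions only. List sizes on chromosomes 1 to 22 and X were 49351 and 47180 peaks for Pol II and 123666 and 124465 for H3K4me1.

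Genes and promoter windows came from RefSeq tables (GRCh38.p14), 250 bases before to 50 after each start. A call needed a peak of each list within 1 kb of the same end. Peaks were put at ends, over the body or in flanks of 50 kb, and overlap meant 1 bp. The percentile of a peak is the share of its own list at or below its -log10 q. Windows were aligned end to end with a gap costing more than a mismatch. Named were all members, up to 6 pathway genes with the highest mean Pol II percentile and up to 6 without a peak, class II genes with Pol II plus CIITA and CD74, the 2 strongest Pol II flank regions per member, and genes with an end nearer to a summit. Outside this rule, the markers, HLA-B's inner region, HCG4P8 and CANX were named after their values were seen. So were the third flank region of B2M and the region 38.4 kb from HLA-E. Computations used scipy 1.17.1, pandas 2.3.3 and numpy 2.4.6 under Python 3.11.15, with plots by matplotlib 3.10.9, and the calls were tested on simulated peaks. No test between samples was made. The members and lists were chosen with earlier results of these data known. The alternatives were 1 list at a time, only peaks above the median -log10 q, and other limits for ends, flanks and overlap.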

Additional observations from a re-analysis of the deposited data

How the results depend on the processing

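Over 59 alternatives of 9 results, 45 counts or shares stayed within 1.5 times the reported count or inside the reported interval, and 14 did not. When the end base itself had to be covered, Pol II was at 3 members (B2M, HLA-C and HLA-E) and 13 pathway genes. With above-median peaks, H3K4me1 was at 19 pathway genes, the member loci held 12 Pol II and 32 H3K4me1 regions with 100% of the former on the latter, and the number of members at which the Pol II lists differed at an end fell from 3 (HLA-B, TAP2 and NLRC5) to 0, the last being an alternative chosen after seeing the data. Flanks of 20 kb gave 14 Pol II and 34 H3K4me1 regions, and flanks of 100 kb gave 36 Pol II regions. Leaving out a list gave 38 to 40 Pol II regions in the loci, of which 73.7% to 75% lay on H3K4me1 against 91.3% with both lists, and 1 to 3 class II genes with Pol II, which became 2 with a 5 kb limit. The number of members with Pol II at an end was 6 without list 1 and 7 without list 2, and 6 when the lists could differ in the end they marked, likewise chosen after seeing the data. The cause of these shifts was not tested, except that fewer peaks, shorter flanks and a single list change the counts by construction. Peak lists give no depth, so a missing peak does not show that the target is absent. No paired analysis was possible because the lists merge the libraries that differ in T number and no test was run on samples.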

Other observations

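The class I region also holds inactive relatives of the heavy chain and MIC genes. The same counts over other pseudogenes were not made. Of 18 annotated HLA and MIC pseudogenes between HLA-F and TAP1 with their flanks, 1 had a Pol II region of both lists within the gene or 1 kb of it, and 9 had an H3K4me1 region. The one with Pol II was MICD, with a fold of 3.79 in list 1 and 5.10 in list 2, and its H3K4me1 fold was 7.84 and 6.79. The other 8 with H3K4me1 had no Pol II region within these limits. Their H3K4me1 folds were 8.16 and 4.02 at HLA-H, 7.886 and 7.002 at HLA-X, 7.13 and 6.37 at HLA-Z and 6.11 and 5.83 at MICG. Lower pairs were 5.58 and 3.88 at HLA-V, 4.81 and 5.45 at HLA-L, 2.61 and 3.02 at HLA-J and 2.58 and 3.22 at HLA-W. The H3K4me1 region counted at HLA-Z did hold a Pol II region, the one at LOC100294145 with 4.79 and 7.46. That Pol II region lay more than 1 kb from HLA-Z. At an end, HLA-J and HLA-X had Pol II peaks in list 1 alone and HLA-L in list 2 alone. These genes were chosen after the lists had been seen, and the sequence likeness of the pseudogenes to the members was not measured here.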
